A study of Homo sapiens with 6 samples.

Results

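A set of 39 genes that build, bundle, move or anchor actin filaments was compared between cells of a pancreatic cancer line with and without an induced transcription factor, GLI2. The genes were listed by symbol for what their proteins do, with earlier results of these data known, and the listing used no measured threshold. All 39 were found among the 25442 genes of the table, each in an entry of its own, and 35 of them had a mean of at least 1 FPKM (fragments per kilobase of transcript, scaled to the size of the library, a level per length) over the 6 libraries and were tested. ACTA2, ACTG2, CNN1 and VIL1 lay under that mean and are given mainly as values.

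The cells were YAPC, a human pancreatic cancer line, carrying the reverse tetracycline transactivator rtTA and a retroviral vector that is switched on by doxycycline (Dox). In iGLI2 cells the vector held GLI2, the zinc finger factor at the end of the Hedgehog pathway, and in the control iEV cells it was empty. Both kinds of cells received Dox for 6 days, so the drug and rtTA were common to all 6 libraries (3 iGLI2, 3 iEV). The insert was the intended difference. Any difference from deriving iEV and iGLI2 cells separately cannot be told apart from that of the insert. The question put by the design was which transcripts differ once GLI2 is present. A single line was used, and bulk RNA was measured, in which more cells with a transcript and more transcript per cell cannot be told apart.

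Actin filaments grow from monomers that profilins deliver, are cut by cofilins, and are held in bundles and networks by fascin, plastins, alpha-actinins and filamins. Myosin II pulls on those filaments, tropomyosins and caldesmon decide which proteins reach them, and zyxin, vinculin and talin tie them to adhesions, while ezrin, radixin and moesin fix them to the plasma membrane. In epithelial tumours the change from a cortical belt and microvilli to stress fibres and protrusions is a known part of the epithelial-mesenchymal transition, and many of the genes are controlled by serum response factor (SRF) and its actin-sensing partners MKL1 and MKL2.

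GLI2 itself checked the labels. It read 0.466, 0.412 and 0.344 in iEV and 94.5, 207 and 195 FPKM in iGLI2 libraries, a difference of 6.81 ± 0.300 (SE) on the log2(FPKM + 1) scale (adjusted p = 0.000162, limma). iGLI2 replicate 1 thus had 0.47 times the GLI2 level of the mean of replicates 2 and 3, and it also stood apart from them elsewhere: over 11525 genes its deviation from the group mean went with transcript GC content (Spearman rank correlation -0.50, a description over genes, which are not independent replicates). Epithelial markers were present and 2 of them were higher in iGLI2 cells, EPCAM with 396 to 418 FPKM in iEV and 521 to 526 in iGLI2 libraries (adjusted p = 0.00709) and CDH1 with 51.0 to 56.3 and 64.8 to 72.5 FPKM (adjusted p = 0.0169, and up to 0.0775 with 1 library left out), while KRT19 did not pass. KRT8 and KRT18 were listed at 0 in all 6 libraries. A listed 0 can be a failed estimate. The 6 markers of smooth muscle and pericytes summed to 1.07 to 1.31 FPKM in iEV and 1.04 to 1.47 in iGLI2 cells, with MYOCD at 0 throughout. The 7 fibroblast markers summed to 1.51 to 1.63 and 2.40 to 3.09 FPKM, nearly all of it COL1A1, which was higher in iGLI2 cells (adjusted p = 0.0110), with DCN at 0 and PDGFRA at 0.0468 to 0.142 FPKM. The part of these markers in the differences of the actin genes was not tested. No read counts are given with FPKM, so the depth of the libraries is unknown and no counting interval can be set.

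Over the whole table, 2742 of 12493 genes (21.9%) passed an adjusted p of 0.05, 1262 of them higher in iGLI2 cells (10.1%) and 1480 lower (11.8%). Of the 35 tested actin genes, 12 passed (34.3%). MSN, CALD1, ZYX, PFN2, PDLIM1, TPM1, RDX, PLS1 and FSCN1 were higher, 9 genes or 25.7%, and CFL2, LIMA1 and PFN1 were lower, 3 genes or 8.57%. The set had no common direction. Its median difference was -0.02, beside -0.01 over all genes tested, and 30 of the 35 differed by less than 1.5-fold. The groups did not overlap in 20 of the 35 (57.1%), against 42.0% of all genes tested. Rescaling each library after the 337 small RNA genes had been taken out turned the split over all genes to 1783 higher (14.7%) and 1223 lower (10.1%) of 3006 called (24.7%), and the actin genes then gave 11 higher, with ACTN1 and FLNA added, and 3 lower.

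The calls were not equally firm. MSN, CALD1 and PFN2 passed at the same threshold under all 16 alternatives to the fit, each library left out in turn among them. Of the other 9, none passed without iEV replicate 2, without iEV replicate 3 only CFL2 and PFN1 did, without iGLI2 replicate 2 or replicate 3 only PFN1 did, and FSCN1, PDLIM1 and TPM1 did not pass without iEV replicate 1. The sign of each difference stayed the same throughout. Leaving out iGLI2 replicate 1 had the opposite effect, with 14 higher and 7 lower, while calls over all genes went from 2742 to 3753. ACTN1, ACTN4, EZR, FLNA and MYH14 then passed as higher and LASP1, PLS3, TPM3 and TPM4 as lower, and all 12 calls were kept.

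**Figure D1:**
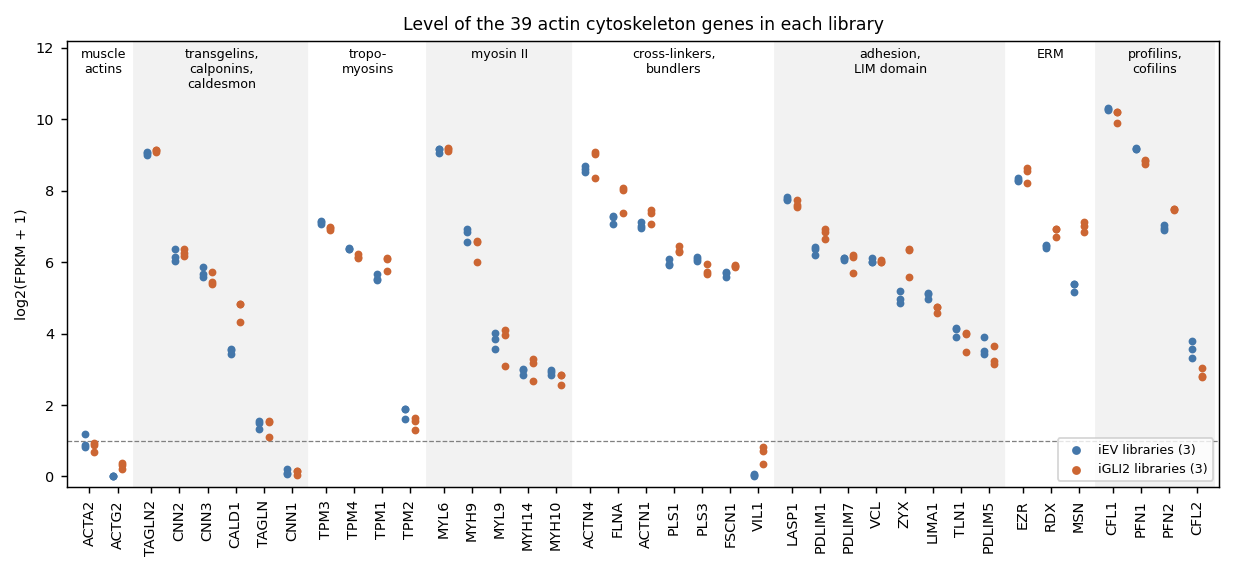
The level of each of the 39 actin cytoskeleton genes in each library as log2(FPKM + 1), grouped by what the proteins do, with iEV libraries as blue points and iGLI2 libraries as orange points; the dashed line marks 1 FPKM. CFL1 is the highest, the smooth muscle genes ACTA2, ACTG2 and CNN1 and the microvillus gene VIL1 lie at the bottom in both groups, and the orange points of MSN, CALD1 and ZYX lie clear of the blue ones.

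The smooth muscle forms ACTA2, ACTG2 and CNN1 and the microvillus protein VIL1 had the lowest levels of the set. Per length, CFL1, the main cofilin, was the highest of the 39 at 1247 ± 19.0 FPKM (SD, n = 3) in iEV cells. It was followed by PFN1, the main profilin, at 582 ± 8.03, the myosin light chain MYL6 at 561 ± 23.7 and the transgelin TAGLN2 at 527 ± 15.2 FPKM. TAGLN2 lay apart from PFN1, while the libraries of MYL6 overlapped with both neighbours in the order. At the other end, ACTA2, the alpha actin of smooth muscle, read 1.26, 0.769 and 0.839 in iEV and 0.622, 0.898 and 0.828 FPKM in iGLI2 cells, and the groups overlapped. The entry of ACTA2 lies in 1 locus with FAS, so reads of the neighbour may enter it. CNN1, the smooth muscle calponin, stayed between 0.0253 and 0.146 FPKM in all 6 libraries. ACTG2, the gamma actin of smooth muscle, was listed at 0 in the 3 iEV libraries and read 0.162, 0.301 and 0.247 FPKM in the iGLI2 libraries, a level at which no fold change was formed.

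Among the tested genes the largest rise on the log2(FPKM + 1) scale was that of MSN, moesin, the linker of actin to the plasma membrane that mesenchymal cells and leukocytes use. It read 34.6, 40.9 and 41.3 in iEV and 113, 138 and 129 FPKM in iGLI2 cells, so every iGLI2 library lay far above every iEV library. The mean was 3.25 times as high, and the difference of 1.68 ± 0.106 (SE) on the log2(FPKM + 1) scale had an adjusted p of 0.000477, which stayed at or under 0.00541 with any library left out. RDX, radixin, its close relative, moved less. Its libraries read 89.1, 83.4 and 87.3 in iEV and 104, 121 and 121 FPKM in iGLI2 cells, without overlap. That is a difference of 0.40 ± 0.0813 (adjusted p = 0.0193, and 0.0842 without iEV replicate 2). EZR, ezrin, the form that epithelial microvilli rely on, was the most abundant at 316 ± 7.85 FPKM in iEV and 357 ± 50.9 in iGLI2 cells, and its difference of 0.17 (95% interval -0.11 to 0.45) did not pass (adjusted p = 0.360). Without iGLI2 replicate 1 it was 0.29 and passed (adjusted p = 0.0131). An antisense transcript, EZR-AS1, lies in the same locus, and the sources do not state whether counting used strand.

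A share within a family does not depend on how libraries are scaled. MSN made up 8.82% ± 0.958 (SD, n = 3) of the summed FPKM of EZR, RDX and MSN in iEV cells and 21.2% ± 1.08 in iGLI2 cells. The share of EZR went the other way, from 71.6% ± 0.805 to 59.5% ± 1.68, and the share of RDX was 19.6% ± 0.373 and 19.3% ± 0.703. The groups did not overlap for MSN and EZR (exact permutation test, two-sided, p = 0.1, the smallest that 3 against 3 libraries can give) and overlapped for RDX (p = 0.6). The summed level of the 3 genes was 442 ± 6.92 and 599 ± 71.8 FPKM (iEV, iGLI2).

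CALD1 and ZYX were the next in size. CALD1, caldesmon, binds along actin and tropomyosin and holds myosin back until it is phosphorylated. It read 9.78, 10.7 and 10.8 in iEV and 19.1, 27.4 and 27.3 FPKM in iGLI2 cells, the lowest iGLI2 library being replicate 1. The difference was 1.15 ± 0.148 (adjusted p = 0.00421, at most 0.0251 with a library left out), a mean ratio of 2.36. ZYX, zyxin, is a LIM domain protein that gathers at strained stress fibres and focal adhesions and recruits their repair. Its libraries read 35.9, 30.5 and 27.9 in iEV and 46.7, 81.4 and 79.5 FPKM in iGLI2 cells. No iGLI2 library fell within the iEV range, but replicate 1 lay far nearer to it than the others did. The difference of 1.08 ± 0.232 (adjusted p = 0.0236) had an adjusted p of 0.0939 without iEV replicate 3 and 0.00226 without iGLI2 replicate 1. The entry of ZYX is written with a locus that also holds EPHA1, an ephrin receptor gene that was measured as well.

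**Figure D2:**
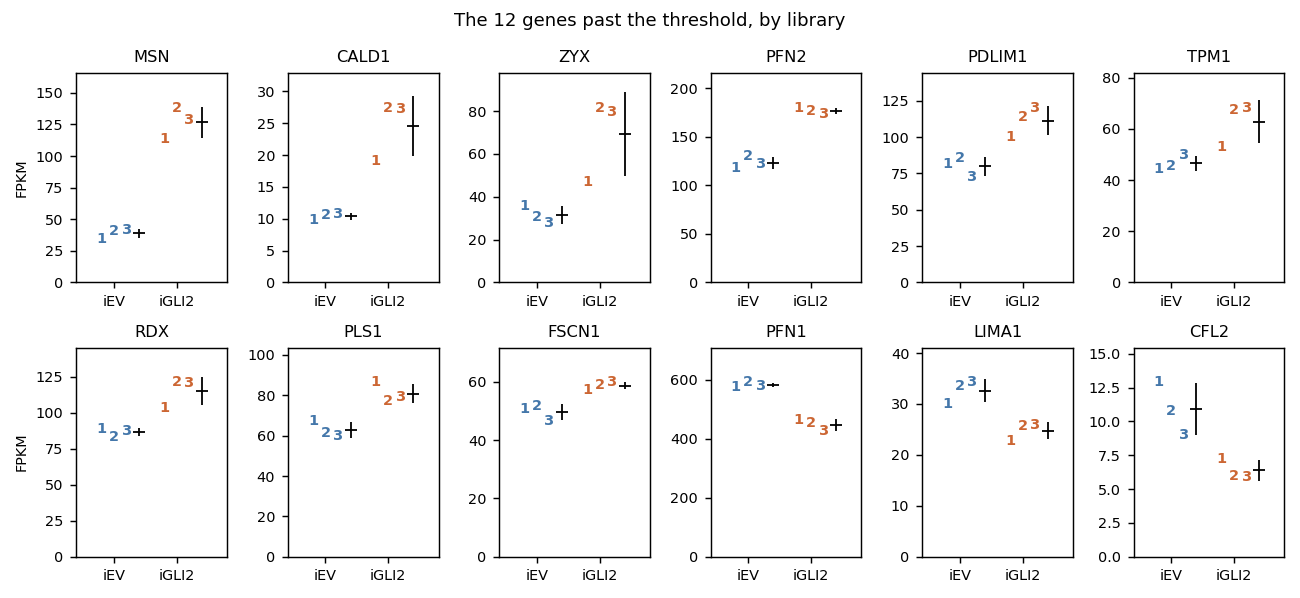
FPKM of the 12 actin genes past the threshold, 1 panel per gene with an axis from 0; each digit is the library with that replicate number (blue iEV, orange iGLI2) and the cross gives the group mean with its SD (n = 3). The groups are apart in every panel, and iGLI2 replicate 1 is the nearest to the iEV libraries for all but PFN2, PLS1 and LIMA1.

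The other LIM domain and adhesion proteins divided. PDLIM1, which binds alpha-actinin through its PDZ domain, read 81.3, 85.5 and 72.3 in iEV and 100, 114 and 120 FPKM in iGLI2 cells, with no overlap. Its difference was 0.48 ± 0.0988 (adjusted p = 0.0215, and 0.0821 without iGLI2 replicate 2). LIMA1, also called EPLIN, which stabilises filaments at the junctions of epithelial cells, was lower. It read 30.0, 33.6 and 34.2 in iEV and 22.8, 25.7 and 25.9 FPKM in iGLI2 cells, and every iGLI2 library was below every iEV library. The difference was -0.38 ± 0.0816 (adjusted p = 0.0231, and 0.0962 without iEV replicate 2). The proteins that carry the mechanical load at adhesions did not pass. VCL, vinculin, was 65.2 ± 2.51 FPKM in iEV and 64.2 ± 1.68 in iGLI2 cells, with an interval for the difference of -0.16 to 0.12. TLN1, talin, which couples integrins to actin, was 15.7 ± 1.57 and 13.5 ± 2.89 FPKM. The entry of TLN1 shares its locus with CREB3 and GBA2. PDLIM7 was 67.2 ± 1.10 and 64.4 ± 11.9, PDLIM5 11.4 ± 2.25 and 9.35 ± 2.02, and LASP1, which joins actin to zyxin, 220 ± 6.26 and 197 ± 13.3 FPKM. Of these 8 adhesion and LIM domain genes 2 rose (25.0%), 1 fell (12.5%) and 5 did not pass, beside 10.1% higher and 11.8% lower of all genes. Of those 5, LASP1 passed as lower without iGLI2 replicate 1 (-0.21, adjusted p = 0.0276).

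Of the 4 profilin and cofilin genes, which bind monomers or sever filaments, 3 (75.0%) passed, in both directions, beside 21.9% of all genes. The class was not called more often beyond these 4. Other genes of capping, severing and monomer binding gave 5 calls of 23 tested (21.7%), 2 higher and 3 lower. PFN2, the less abundant profilin here, read 118, 130 and 122 in iEV and 180, 177 and 174 FPKM in iGLI2 cells. The iGLI2 libraries lay closer to each other than the iEV libraries did, and the difference of 0.52 ± 0.0621 had an adjusted p of 0.00327, at most 0.0215 with a library left out. PFN1 was lower, with 576, 591 and 580 in iEV and 465, 453 and 425 FPKM in iGLI2 cells. The difference of -0.38 ± 0.0609 (adjusted p = 0.00913) missed the threshold only without iEV replicate 2 among the libraries left out (0.0538). CFL2, the cofilin typical of muscle, was lower too, with 12.9, 10.8 and 9.03 in iEV and 7.26, 6.00 and 5.86 FPKM in iGLI2 cells. Its difference was -0.68 ± 0.139 (adjusted p = 0.0201, and 0.0819 without iGLI2 replicate 2), a mean 1.71 times as high in iEV as in iGLI2 cells. CFL1 was 1102 ± 137 FPKM in iGLI2 cells and lay below iEV in every library, and its difference of -0.19 (interval -0.44 to 0.07) did not pass.

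The profilins thus changed in proportion. PFN2 made up 17.5% ± 0.543 of the summed FPKM of both in iEV and 28.3% ± 0.604 in iGLI2 cells, with no overlap (exact permutation p = 0.1). The sum of both was 706 ± 14.4 and 624 ± 23.0 FPKM (iEV, iGLI2). CFL2 made up 0.866% ± 0.152 of the cofilins in iEV and 0.587% ± 0.152 in iGLI2 cells, and those shares overlapped (exact permutation p = 0.2).

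Cross-linking and bundling proteins came next. PLS1, plastin 1 or fimbrin, bundles the actin cores of microvilli and is part of the classical signature that the study uses for pancreatic tumours. It read 67.4, 61.1 and 59.8 in iEV and 86.4, 77.3 and 78.9 FPKM in iGLI2 cells and was thus higher with GLI2, by 0.36 ± 0.0766 (adjusted p = 0.0229, and 0.0951 without iEV replicate 2). PLS3, plastin 3, the form of most solid tissues, read 69.6, 67.1 and 64.1 in iEV and 60.8, 51.6 and 50.2 FPKM in iGLI2 cells. Its difference of -0.30 ± 0.0895 just missed the threshold (adjusted p = 0.0606) and passed without iGLI2 replicate 1 (-0.39, adjusted p = 0.00723). PLS1 rose from 48.4% ± 0.778 to 59.9% ± 1.23 of the summed plastin level, with no overlap (exact permutation p = 0.1).

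FSCN1, fascin, which bundles filaments in filopodia and invadopodia and is a known marker of invasive carcinoma, changed little. It read 50.6, 51.7 and 46.6 in iEV and 57.4, 59.0 and 59.8 FPKM in iGLI2 cells, apart but close. The difference of 0.24 ± 0.0630 had an adjusted p of 0.0443, and 0.130 without iGLI2 replicate 2. FLNA, filamin A, which links filaments into networks at right angles, had a larger difference that did not pass. Its libraries read 134, 157 and 152 in iEV and 166, 260 and 270 FPKM in iGLI2 cells, all 3 above the iEV range with replicate 1 just over it. The difference was 0.62 ± 0.198 (adjusted p = 0.0752), and without replicate 1 it was 0.84 (adjusted p = 0.00326). The alpha-actinins ACTN1 (130 ± 7.48 and 158 ± 22 FPKM) and ACTN4 (389 ± 20.6 and 462 ± 115 FPKM), which space parallel filaments, did not pass and kept their proportion, ACTN1 being 25.0% ± 1.30 of their sum in iEV and 25.9% ± 2.54 in iGLI2 cells (exact permutation p = 0.8). Without iGLI2 replicate 1 both passed as higher (0.39 with adjusted p = 0.0134, and 0.44 with adjusted p = 0.00855). The entry of ACTN4 shares its locus with CAPN12.

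VIL1, villin, the bundling and severing protein of intestinal and pancreatic duct microvilli, stayed under the level for testing. Its libraries read 0.00919, 0.0307 and 0.0460 in iEV and 0.270, 0.655 and 0.781 FPKM in iGLI2 cells. Every iGLI2 library was above every iEV library, at a level that is low beside the other bundlers, and the ratio of the means was 19.8. With no filter on low values VIL1 (0.59, adjusted p = 0.0316) and ACTG2 (0.30, adjusted p = 0.00850) passed as higher, and ACTA2 and CNN1 did not.

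**Figure D3:**
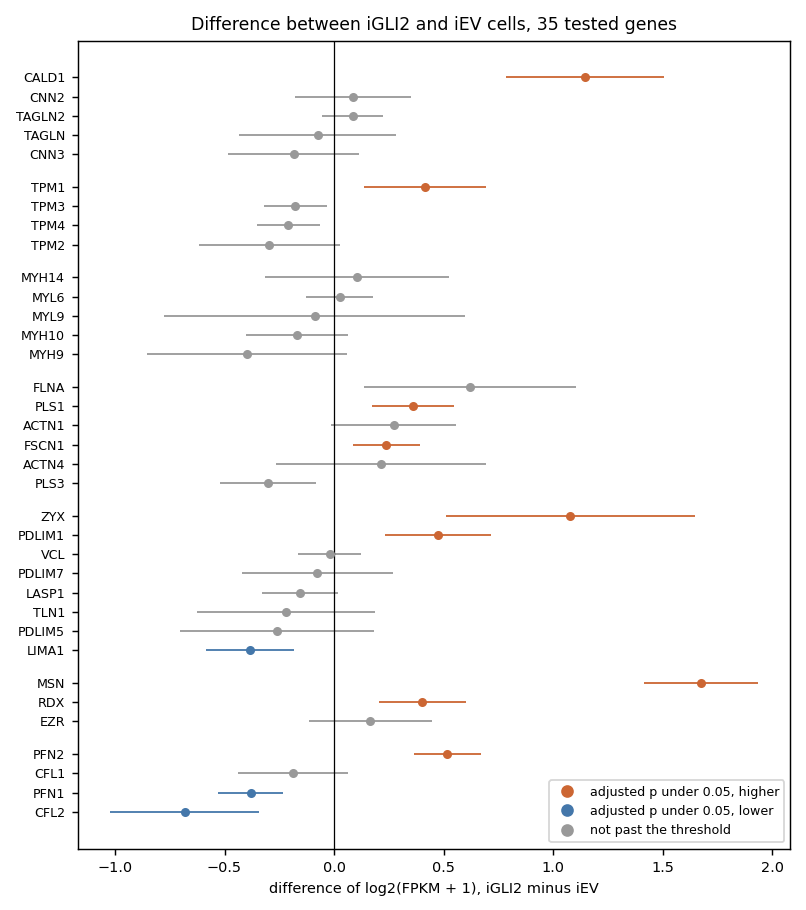
Difference of log2(FPKM + 1) between iGLI2 and iEV cells for the 35 tested actin genes, grouped by role, with bars for the 95% interval of limma; orange and blue mark adjusted p under 0.05 (higher, lower) and grey the rest. MSN, CALD1 and ZYX lie above 1, while the myosin II genes are grey and their intervals hold 0.

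Of the contractile genes proper, none of the 5 of myosin II passed in limma, and 0 had an unadjusted p under 0.05, beside 21.9% of all genes past the adjusted threshold. MYH9, the main non-muscle heavy chain, read 110 ± 13.9 FPKM in iEV and 84.3 ± 18.3 in iGLI2 cells, with a difference of -0.40, as large as those of PFN1 and LIMA1, and an interval of -0.86 to 0.06. MYH10 was 6.51 ± 0.364 and 5.70 ± 0.701 FPKM, and MYH14, the heavy chain of polarised epithelia, 6.68 ± 0.487 and 7.39 ± 1.81. The light chain MYL6 stood at 561 ± 23.7 and 571 ± 16.8 FPKM (interval -0.13 to 0.18). MYL9, a regulatory light chain, was 13.2 ± 2.1 and 12.8 ± 4.63 FPKM, with 7.59 FPKM in iGLI2 replicate 1 against 14.6 and 16.3 FPKM in the others. Its entry lies in 1 locus with DLGAP4. iGLI2 replicate 1 was the lowest of its group for all 5 myosin genes. Without it MYH14 passed as higher (0.30, adjusted p = 0.0440). Within the heavy chains, MYH14 made up 5.44% ± 0.314 in iEV and 7.54% ± 0.310 in iGLI2 cells and MYH9 89.3% ± 0.729 and 86.5% ± 0.379, and neither share overlapped between groups (exact permutation p = 0.1 for each).

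Tropomyosins lie along the filament and select which myosins and severing proteins it meets. TPM1 read 44.5, 45.6 and 50 in iEV and 53.1, 67.4 and 68.1 FPKM in iGLI2 cells, without overlap. The difference of 0.41 ± 0.114 was at the edge of the threshold (adjusted p = 0.0494, and 0.155 without iEV replicate 2). The other three had lower means in iGLI2 cells and did not pass. TPM3 was 139 ± 4.04 FPKM in iEV and 123 ± 4.07 in iGLI2 cells, TPM4 82.3 ± 1.16 and 71.1 ± 3.21 FPKM, and TPM2, the least abundant, 2.49 ± 0.378 and 1.84 ± 0.339 FPKM. TPM3 (-0.20, adjusted p = 0.0352) and TPM4 (-0.24, adjusted p = 0.0115) passed as lower without iGLI2 replicate 1. The total of the 4 genes was 270.0 ± 2.11 FPKM in iEV and 258 ± 3.48 in iGLI2 cells, and within it TPM1 went from 17.3% ± 1.21 to 24.3% ± 3.10, TPM3 from 51.3% ± 1.12 to 47.4% ± 1.78 and TPM4 from 30.5% ± 0.205 to 27.5% ± 1.48. None of these 3 shares overlapped between groups (exact permutation p = 0.1 for each). FPKM per gene does not separate the muscle and non-muscle splice forms of TPM1.

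Transgelins and calponins, small proteins that bind along filaments and are best known from smooth muscle, did not pass. TAGLN2 was 527 ± 15.2 and 559 ± 11.6 FPKM, CNN2 72.1 ± 9.16 and 76.4 ± 5.55 and CNN3 51.1 ± 5.42 and 45 ± 6.14. TAGLN, the form that rises in fibroblasts turning into myofibroblasts, stood at 1.76 ± 0.208 FPKM in iEV and 1.64 ± 0.427 in iGLI2 cells. Its entry lies in 1 locus with SIDT2. CALD1 was the only called gene of the 5 tested in this group, a share close to the 21.9% called over all genes.

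**Figure D4:**
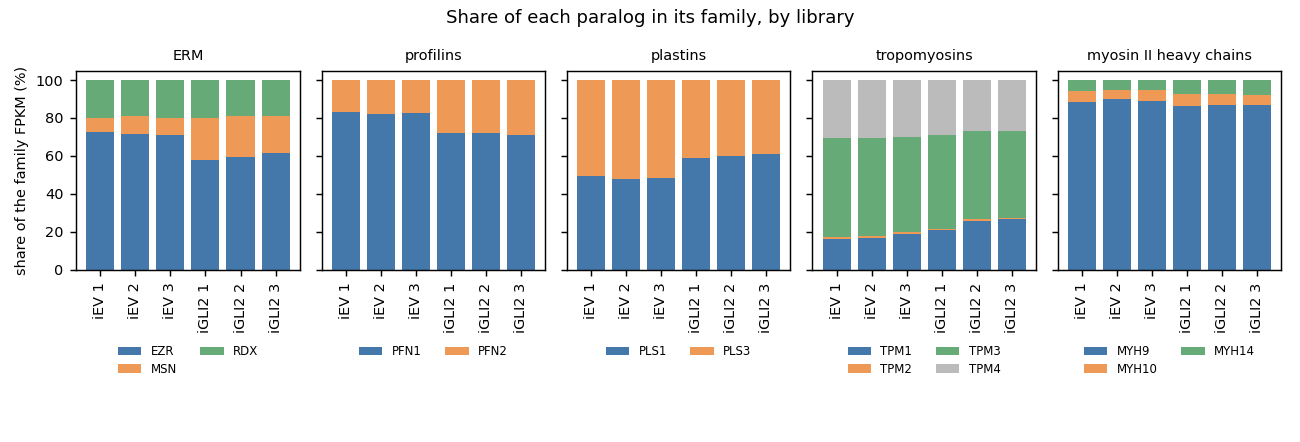
Share of each paralog in the summed FPKM of its family (percent, bars add to 100) in each of the 6 libraries, for the 5 families in which a share did not overlap between groups. Moesin, PFN2, PLS1, TPM1 and MYH14 take a larger share in all 3 iGLI2 libraries than in any iEV library.

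Over the 9 families with at least a pair of tested paralogs, 22 shares were formed. In 11 of them, in 5 families (ezrin, radixin and moesin, the profilins, the plastins, the tropomyosins and the myosin heavy chains), the groups did not overlap. Each of these had an exact permutation p of 0.1, or 0.2 after Benjamini-Hochberg adjustment over the 22, and the design cannot give a smaller one. The transgelins, calponins, alpha-actinins and cofilins overlapped. Shares of a pair add to 100% and are not independent of each other. No background of shares from other gene families was formed. For the levels of single genes, the groups did not overlap in 42.0% of all genes tested.

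iGLI2 replicate 1 was the lowest of its group for 23 of the 35 tested actin genes, beside 53.9% of all genes tested, and the highest for 11. Its distance from the mean of the other iGLI2 libraries went with the GC content of the transcript, which ran from 34.8% to 65.0% (Pearson correlation -0.61 and Spearman rank correlation -0.61 over 35 genes that share the library, a description). FLNA, ACTN4, MYL9, MYH9 and ZYX, all between 58.4% and 63.7% GC, were among those far below. With a trend on GC and length removed from each library, 8 actin genes were higher and 5 lower. Over all genes 3113 passed in that fit, beside 2742 in the main one. RDX (0.34, adjusted p = 0.0759), TPM1 (0.41, 0.0531), FSCN1 (0.22, 0.0676) and PFN1 (-0.30, 0.0887) then missed the threshold with differences of the same sign, and ACTN1 and FLNA passed as higher and PLS3, TPM3 and TPM4 as lower. The part of GC content in the differences between the groups was not tested.

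**Figure D5:**
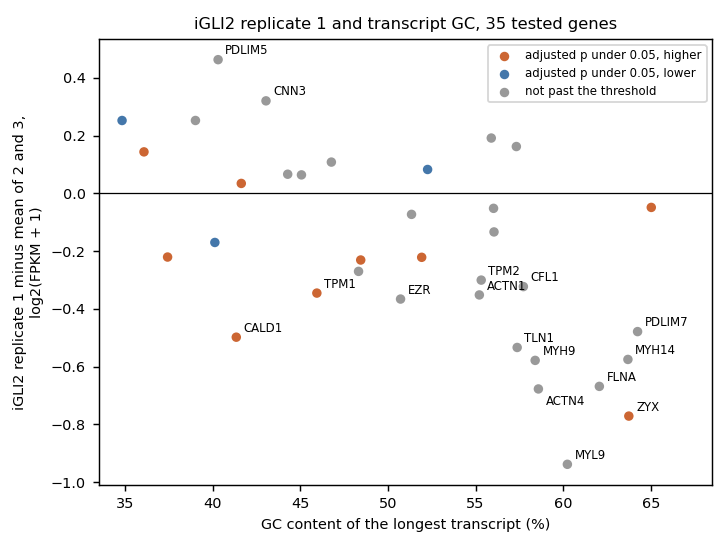
For the 35 tested actin genes, log2(FPKM + 1) of iGLI2 replicate 1 minus the mean of replicates 2 and 3 against the GC content of the longest transcript (percent). The genes with the largest deviations are named. Points fall from left to right (Spearman rank correlation -0.61), with MYL9, ZYX, ACTN4 and FLNA lowest and PDLIM5 highest.

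The promoters were read for the letters of known sites. RefSeq windows from 250 bases before to 50 after a start (GRCh38.p14) were at hand for 34 of the 39 genes, 55 windows in all, and 54 of them were found as 1 exact copy in GRCh37, the build of the table. The CArG box, the site of SRF, was searched by its strict form on both strands. It was in 454 of 35116 windows of all genes (1.29%) and in 5 of the 55 (9.09%), those of ACTG2, ACTN1, CNN2, FLNA and TPM4. ACTG2 was not tested and the other 4 did not pass, although FLNA and ACTN1 (higher) and TPM4 (lower) did without iGLI2 replicate 1. No window of the 7 higher genes with one (13 windows) or of the 3 lower genes (5 windows) held the strict form. At 1.29% of all windows, its absence from so few says little. The stretches around 4 of those boxes follow, 5′ to 3′ on the strand of the gene with the box in capitals, as they show which actin genes carry the motif without a call. They are FLNA (chrX:153603042-153603141, GRCh37, minus strand), CNN2 (chr19:1026473-1026572, plus), TPM4 (chr19:16178130-16178229, plus) and ACTG2 (chr2:74119980-74120116, plus, with 2 boxes).
FLNA: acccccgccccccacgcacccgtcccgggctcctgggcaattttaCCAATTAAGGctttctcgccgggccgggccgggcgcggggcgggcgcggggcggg
CNN2: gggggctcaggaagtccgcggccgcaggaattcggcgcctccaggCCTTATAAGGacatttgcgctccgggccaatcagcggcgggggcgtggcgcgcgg
TPM4: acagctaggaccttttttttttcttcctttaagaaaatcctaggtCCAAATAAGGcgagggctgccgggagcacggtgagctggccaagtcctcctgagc
ACTG2: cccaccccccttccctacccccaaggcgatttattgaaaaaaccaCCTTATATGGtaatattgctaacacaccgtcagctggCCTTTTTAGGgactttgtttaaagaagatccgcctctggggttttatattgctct

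The 3 genes with the largest rises had no letters in common among those searched. The 200 bases before the start nearest the 5′ end of each table entry follow: MSN (chrX:64887321-64887520, GRCh37, plus strand), CALD1 (chr7:134464185-134464384, plus) and ZYX (chr7:143078238-143078437, plus). Capitals mark an MCAT element, the site of TEAD factors (CATTCC, on either strand), which only the CALD1 stretch holds. MCAT letters were in 14% of all windows and in 12 of the 55 (21.8%). The GLI consensus GACCACCCA was in 0.236% of all windows and in none of the 55, which says only that these letters are not in these windows.
MSN: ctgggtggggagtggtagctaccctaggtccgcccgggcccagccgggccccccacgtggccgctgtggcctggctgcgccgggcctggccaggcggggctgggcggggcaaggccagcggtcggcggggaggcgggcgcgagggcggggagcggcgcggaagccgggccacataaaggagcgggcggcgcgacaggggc
CALD1: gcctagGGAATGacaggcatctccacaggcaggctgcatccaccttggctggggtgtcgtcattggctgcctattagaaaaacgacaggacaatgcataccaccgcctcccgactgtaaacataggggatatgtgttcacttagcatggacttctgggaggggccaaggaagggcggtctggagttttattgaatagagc
ZYX: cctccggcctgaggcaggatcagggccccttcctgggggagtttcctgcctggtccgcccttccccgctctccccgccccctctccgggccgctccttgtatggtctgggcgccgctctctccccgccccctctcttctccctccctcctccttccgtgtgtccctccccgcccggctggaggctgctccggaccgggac

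The other genes of the actin system gave the setting for these values. Of 138 genes listed as regulators and partners, 136 were found and 116 tested, with a median of -0.08. Of the 116, 8 rose (6.9%) while 28 fell (24.1%), beside 10.1% and 11.8% of all genes. With the small RNA genes left out the counts were 15 and 22, beside 14.7% higher and 10.1% lower of all genes. The actins of non-muscle cells did not pass: ACTB was 2217 ± 68.1 FPKM in iEV and 2055 ± 354 in iGLI2 cells and ACTG1 1631 ± 66.3 and 1596 ± 179 FPKM. SRF (46.7 ± 1.02 and 42.4 ± 1.42 FPKM), MKL1 (6.19 ± 0.742 and 5.39 ± 0.507) and MKL2 (6.69 ± 0.406 and 7.01 ± 0.315) did not pass either, and SRF alone of them did so without iGLI2 replicate 1 (-0.16, adjusted p = 0.0427). RHOA, ROCK1 and ROCK2, the GTPase and kinases that switch on contraction, differed by -0.01, 0.03 and -0.07, and none passed.

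MYLK, the kinase that activates myosin light chains, was the single call among the 13 tested genes of myosin control (7.69%, beside 21.9% of all genes). It read 3.75, 4.62 and 4.57 in iEV and 1.92, 3.11 and 2.61 FPKM in iGLI2 cells, a difference of -0.59 ± 0.146 (adjusted p = 0.0364, and 0.129 without iEV replicate 2). Nucleators of filaments gave 9 lower (33.3%, beside 11.8% of all genes) and 0 higher calls of 27 in limma, with 1 higher at an unadjusted p under 0.05. With the small RNA genes left out 7 were lower and 1 higher, and without iEV replicate 2 or 3 or iGLI2 replicate 2 or 3 there were 5 lower. COBL (7.46 ± 0.182 and 2.73 ± 0.261 FPKM) and the formin FHOD3 (10.4 ± 0.900 and 4.27 ± 0.239) had the largest differences among them, -1.18 and -1.11. The other lower calls, named after their values were seen, were the formins DIAPH1, DIAPH3, FMNL1, FMNL2, FHOD1 and INF2 and the nucleator SPIRE2, and no subunit of the Arp2/3 complex was called. Focal adhesion and LIM domain genes outside the 39 gave 3 higher and 7 lower of 20. TNS4, a tensin without the actin-binding part of its relatives, fell by 1.26 on the log2(FPKM + 1) scale (adjusted p = 0.0367, and 0.114 without iGLI2 replicate 2), and FHL1 rose by 1.21, from 1.49 ± 0.393 to 4.86 ± 1.57 FPKM (adjusted p = 0.0178).

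The remaining genes with the largest changes were bundlers, GTPases, a phosphatase and a PDZ and LIM domain protein. VILL, a relative of villin, fell from 7.18 ± 0.701 to 2.42 ± 0.269 FPKM (-1.26, adjusted p = 0.000824) and SYNPO, synaptopodin, from 4.72 ± 0.972 to 1.81 ± 0.705 FPKM (-1.05, adjusted p = 0.0258, and 0.0999 without iEV replicate 3). RHOF, which forms filopodia, rose from 55.3 ± 9.27 to 108 ± 2.72 FPKM (0.96, adjusted p = 0.00379), and RHOC, a GTPase known from tumour cell invasion, from 109 ± 5.09 to 145 ± 9.89 FPKM (0.42, adjusted p = 0.0140). SSH1, the phosphatase that activates cofilin, rose by 0.43 (adjusted p = 0.00474), and PDLIM4, of the same family as PDLIM1, by 0.89 (adjusted p = 0.0344, and 0.113 without iGLI2 replicate 2). Of the other actin genes, 8 were called higher in the main fit. Only 2 were without iEV replicate 3, and 2 without iGLI2 replicate 2. The rises of FHL1, RHOF, PDLIM4, SSH1 and RHOC thus did not all pass in those fits.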

How the data were processed

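RNA-seq of 6 YAPC libraries (3 iEV, 3 iGLI2) was analysed from the table the authors deposited. Per the study's methods and the submitters' processing notes, the authors clipped reads by Trimmomatic, mapped them by TopHat2 on hg19, and ran Cuffdiff 2.1.1. The deposited values are FPKM by the authors, a unit inferred from the values since the header names none. The gene annotation, strandedness and scaling between libraries are not given in the sources used here, and depth cannot be read from FPKM.

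Of 27024 entries, 1252 outside the primary chromosomes and 330 with a higher entry of the same name were left out, and 27 names written as dates were kept apart by locus. A mean of 1 FPKM or more was required, which 12493 genes met, and log2(FPKM + 1) was compared by limma 3.58.1 (R 4.3.3), two-sided, on condition alone, with an intensity trend and Benjamini-Hochberg adjustment over all of them, with a threshold of 0.05. Intervals are 95% intervals of that model. Fold changes on this scale understate the change of low genes. On simulated data for the 12493 tested genes in this design, the fit recovered 171 of 200 changed genes (85.5%) and called 3 unchanged ones. Every planted change was at least 1 in size on the log2 scale, and the noise was independent, with no GC or library effect. The smaller differences of most actin genes were therefore not covered by it. Paralog shares were compared by exact two-sided permutation tests over libraries. The labels do not say that replicates were separate cultures, so p-values measure only the spread between these samples.

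The 39 genes and the lists of other actin genes and markers were chosen with earlier results of these data known, and the lists were written from memory. Values by library were to be given for called members, and by group for the others, and a few others are given by library as chosen after their values were seen. Of the other actin genes, the 5 largest rises and 5 largest falls among calls were named, besides ACTB, ACTG1, SRF, MKL1, MKL2, RHOA, ROCK1, ROCK2 and MYLK. Alternatives were upper quartile scaling, leaving out small RNA genes, quantile normalization, a pseudocount of 0.1, no filter, a minimum mean of 5 FPKM, a block on the replicate number or on the digit in the sample code, no trend, each library left out, an adjusted p under 0.01, at least 1.5-fold, and, chosen after seeing the data, a GC and length trend removed from each library. Loci, and the genes sharing them, were read from the deposited entries. GC content and length were those of the longest GENCODE transcript on GRCh37. Tables and plots were made with Python 3.11.15, pandas 2.3.3, numpy 2.4.6 and matplotlib 3.10.9.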

Additional observations from a re-analysis of the deposited data

How the results depend on the processing

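Calls among the actin genes moved with single libraries. With 1 library left out, the actin genes called ranged from 3 to 21 (3 to 14 higher, 0 to 7 lower), other actin genes from 14 to 50 (2 to 15 higher, 12 to 35 lower), all genes from 1223 to 3753, the median of the actin genes from -0.035 to 0.083 and the paralog shares without overlap from 11 to 16. At an adjusted p under 0.01 there were 1095 calls among all genes, 4 among the actin genes (3 higher, 1 lower) and 12 among the others (2 and 10), and at 1.5-fold or more 1217, 4 (3 and 1) and 19 (3 and 16). Leaving out small RNA genes gave 15 other actin genes higher and a median of the actin genes of 0.057. A block on the sample code's digit gave 17 other actin genes lower and 23 called, with 2084 calls over all genes. Removing the GC and length trend gave 5 actin genes lower, with 3113 calls over all genes. The replicate number as a block gave 9 actin genes higher (FLNA added, adjusted p = 0.0284, and FSCN1 lost, 0.0501) and 8 lower, with MYH9 (0.0307), PDLIM5 (0.0315), PLS3 (0.0295), TPM2 (0.0382) and TPM4 (0.0427) added, 15 other actin genes higher, and 15 of 22 paralog shares with 1 sign in all 3 pairs. With that block the calls over all genes also went up, from 2742 to 3928. Same-numbered libraries correlated at 0.20, 0.092 and 0.028 in their deviations. Of the differently numbered ones, iEV replicate 2 and iGLI2 replicate 3 stood at 0.12, and the rest were negative (-0.19 to -0.012). The labels state no pairing, and the main fit used condition alone. Whether the numbers pair the samples was not settled.

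Small differences changed sign, and no reversed value passed the threshold. With 1 library left out they ranged from -0.15 to 0.067 for TAGLN, -0.28 to 0.22 for MYL9 (0.0073 without iEV replicate 2), -0.011 to 0.049 for MYL6, -0.014 to 0.30 for MYH14 (past the threshold at the upper end), -0.042 to 0.011 for VCL, -0.17 to 0.083 for PDLIM7, -0.22 to 0.026 for ACTB, -0.10 to 0.056 for ACTG1, -0.030 to 0.036 for RHOA (0.0053 without iGLI2 replicate 3) and -0.035 to 0.065 for ROCK1. By upper quartile scaling VCL was at 0.022, ACTG1 at 0.0058 and RHOA at 0.037. With small RNA genes out VCL was at 0.057, PDLIM7 at 0.000495, ACTG1 at 0.042, RHOA at 0.073 and ROCK2 at 0.0078. By quantile normalization CFL1 was at 0.013, ACTB at 0.057, ACTG1 at 0.13 and RHOA at 0.056. With the GC trend removed ACTG1 was at 0.0077 and ROCK1 at -0.057. The causes were not tested. The other genes named here kept their direction under every alternative run.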
